A study of Mus musculus with 6 samples.

Results

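Wnt signalling genes were examined in RNA sequencing libraries from pressure-loaded mouse hearts. The load came from transverse aortic constriction (TAC), the surgical tying of the aortic arch, against which the left ventricle must pump. The set was chosen by gene symbol and holds the Wnt ligands, the Frizzled receptors, the co-receptors *Lrp5* and *Lrp6*, and the secreted antagonists. It also holds the R-spondins with *Lgr5*, one of their receptors, and the target gene *Axin2*. It came to 46 of the 23995 genes listed, made up of 19 ligands, 10 Frizzled receptors, 2 co-receptors, 6 antagonists of the sFRP, Frzb and Wif1 type, 3 Dickkopf genes, 5 R-spondin and *Lgr5* genes, and *Axin2*. *Dkk3*, here one of the atrial markers, was left out by the rule. Of the 6 libraries, 3 were labelled WT and 3 LTBP4-CKO, a cardiomyocyte-specific and inducible knockout of *Ltbp4*, which encodes a protein that binds latent TGF-beta in the extracellular matrix. All mice had TAC at 10 to 12 weeks of age. The WT libraries carry flox in their names, while the sources used here do not give the Cre driver, the inducing agent, the time after TAC, the heart chamber or the animals per library. Both genotypes had surgery and no heart without it was analysed here, so load itself was not compared. Differences are those between the libraries of each genotype under load, which may also differ in tissue content.

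Wnt proteins are secreted, lipid-modified signals that bind Frizzled receptors on the cell surface. With the co-receptors LRP5 and LRP6, this stops the breakdown of beta-catenin, which then acts with TCF and LEF factors on target genes such as *Axin2*, itself a brake on the pathway. Other Wnt ligands, such as WNT5A and WNT11, act mostly without beta-catenin, on cell shape and movement. Secreted frizzled-related proteins (sFRPs, with FRZB as a member of the same family) and WIF1 bind Wnt ligands outside the cell, Dickkopf proteins block LRP5 and LRP6, and R-spondins keep Frizzled receptors on the surface by inhibiting the ligases ZNRF3 and RNF43. In the injured or pressure-loaded heart the pathway is studied chiefly for its part in fibroblasts, vessels and scar formation.

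Values are FPKM (fragments scaled by transcript length and by mapped fragments), so levels can be set side by side between genes. The depth recovered from low values was about 3600000 to 5900000 fragments in WT and 5900000 to 14000000 in LTBP4-CKO libraries. In bins of depth, the median squared difference between WT libraries 1 and 3 was at most 1.92 times that from counting alone, and that between LTBP4-CKO libraries 2 and 3 at most 1.78 times, against 66.0 to 255 times at the highest for the other 13 pairs. Each of these close pairs was averaged and counted as 1 sample, which left 2 samples per genotype. The libraries of each close pair carry different titles, and WT library 3 and LTBP4-CKO library 3 belong to the later sample records. No label says that libraries came from separate animals, so p-values measure only the spread between these samples, which may be technical. *Ltbp4* itself was at 368, 248 and 357 FPKM in WT and 139, 199 and 195 FPKM in LTBP4-CKO libraries 1 to 3. The libraries also differed in tissue markers. The 7 atrial cardiomyocyte markers summed to 37562 and 37652 FPKM in WT libraries 1 and 3 and to 1594 FPKM in WT library 2. In LTBP4-CKO libraries 1 to 3 they summed to 13948, 296 and 286 FPKM. Of the sum in LTBP4-CKO library 1, *Nppa* alone gave 13882 FPKM, and *Myl4*, another of the 7, was at 8.11 FPKM. In WT libraries 1 and 3, *Nppa* was at 30529 and 30706 FPKM and *Myl4* at 2629 and 2560 FPKM. The 8 ventricular cardiomyocyte markers summed to 6355, 24542 and 6407 FPKM in WT libraries 1 to 3. In LTBP4-CKO libraries 1 to 3 they summed to 65760, 21379 and 21095 FPKM. WT library 2 thus lay above LTBP4-CKO libraries 2 and 3. Estimates were lower in LTBP4-CKO for 6 of 7 atrial markers (0 called by limma, 1 at an unadjusted p under 0.05) and higher for 8 of 8 ventricular markers (0 called, 0 at an unadjusted p under 0.05). In bulk tissue, fewer cells of a type and less RNA per cell cannot be told apart.

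Of the 46 Wnt genes, 18 reached an FPKM of 1 in at least 3 libraries and were tested in a fit over all 12485 genes that did so, and 0 of them passed with a genotype that never reached that level. In every WT library the highest level of the family was that of a secreted antagonist, *Sfrp2* or *Frzb*, and the estimates of *Sfrp2*, *Frzb*, *Rspo1* and *Sfrp1* were all lower in LTBP4-CKO hearts by over 1 on the log2(FPKM + 1) scale. None of the 18 was called higher or lower (limma, Benjamini-Hochberg adjusted p = 0.999 for each), and over all genes 0.00801% were called higher and 0.0% lower. At an unadjusted p under 0.05 there were 2 members, *Rspo1* and *Sfrp2*, both with lower estimates, where 2.29% of all genes tested were lower and 0.705% higher at that level. Estimates were lower in LTBP4-CKO for 15 of the 18 members, against 45.8% of all genes, with a median log2 fold change of −0.52 beside 0.041 over all genes. Every LTBP4-CKO library lay below every WT library for 5 of the 18 members (*Axin2*, *Frzb*, *Rspo1*, *Sfrp1* and *Sfrp2*), a pattern found in 11.5% of all genes. Of the 28 members under the filter, 4 had the same pattern (*Dkk2*, *Fzd3*, *Sfrp4* and *Wnt4*). The 11.5% covers tested genes only, and the share over all genes under the filter was not computed, so this count has no measure beside it. No tested member was higher in every LTBP4-CKO library, against 10.4% of all genes. The median of the members was −0.16 without WT libraries 1 and 3, −0.27 without LTBP4-CKO libraries 2 and 3, −0.76 without LTBP4-CKO library 1 and −0.93 without WT library 2.

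**Figure D1:**
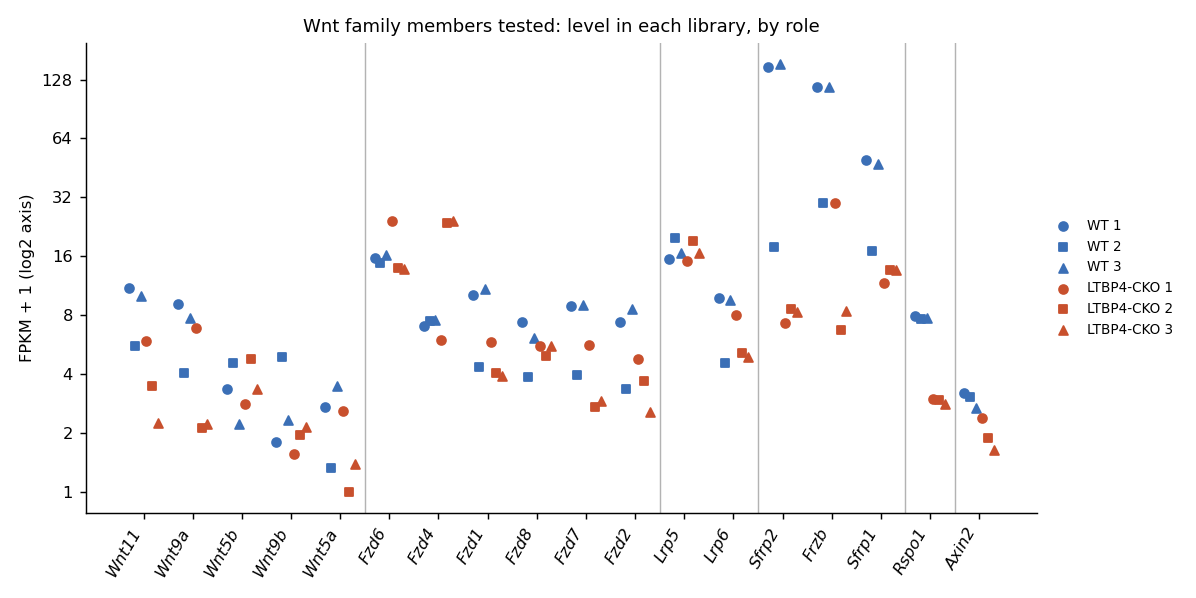
Level of each of the 18 Wnt family members tested, as FPKM + 1 on a log2 axis, in the 3 WT libraries (blue) and the 3 LTBP4-CKO libraries (red), with genes grouped by role from ligands at the left to *Axin2* at the right. For *Sfrp2*, WT libraries 1 and 3 stand at 148 and 153 FPKM and the other 4 libraries at 6.32 to 16.9 FPKM, whereas the 3 WT values of *Rspo1* lie within 6.63 to 6.92 FPKM.

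**Figure D2:**
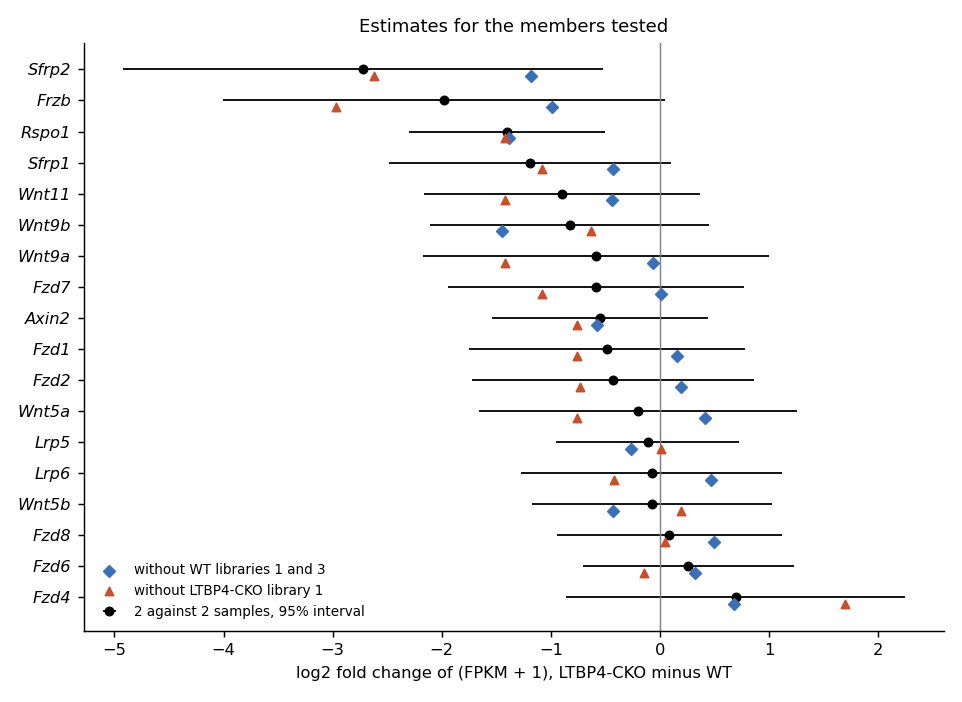
Log2 fold change of FPKM + 1, LTBP4-CKO minus WT, for the 18 members tested, as the limma estimate with its 95% interval (black), without WT libraries 1 and 3 (blue) and without LTBP4-CKO library 1 (red). The estimate of *Rspo1* lies between −1.42 and −1.38 in all 3 fits, and that of *Sfrp2* moves from −2.72 to −1.18 without WT libraries 1 and 3.

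For 30 of the 46 members the RefSeq table used (GRCm38.p6, the same build as mm10) held a promoter whose start lay close to the deposited start of the gene. The windows of all genes were not matched in this way and can be several per gene, so they form an unlike set. The windows of 250 bases before the start were rich in CpG, with a median of 22.5 CpG and 69.4% GC, beside 6 CpG and 52.4% GC over the windows of all genes. The windows of 5 genes that carry the differences described below are shown, since their values differ in pattern. *Sfrp2* and *Frzb* were highest in the same WT libraries, *Rspo1* split by genotype, *Fzd4* was highest in LTBP4-CKO libraries 2 and 3, and *Axin2* is the pathway's own target. Capitals mark matches on either strand to CTTTGA, the core bound by TCF and LEF factors, or to the 6 letters bound by SMAD factors, CAGACA. They are read 5′ to 3′ on the strand of the gene, at chr4:124986180-124986429 (plus strand) for *Rspo1*, chr3:83766071-83766320 (plus) for *Sfrp2*, chr2:80447397-80447646 (minus) for *Frzb*, chr7:89404116-89404365 (plus) for *Fzd4* and chr11:108920099-108920348 (plus) for *Axin2*.
Rspo1: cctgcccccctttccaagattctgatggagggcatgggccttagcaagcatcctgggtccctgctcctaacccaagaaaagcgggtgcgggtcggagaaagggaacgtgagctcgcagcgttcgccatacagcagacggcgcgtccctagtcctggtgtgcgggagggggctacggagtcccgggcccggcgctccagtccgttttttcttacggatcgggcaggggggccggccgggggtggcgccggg
Sfrp2: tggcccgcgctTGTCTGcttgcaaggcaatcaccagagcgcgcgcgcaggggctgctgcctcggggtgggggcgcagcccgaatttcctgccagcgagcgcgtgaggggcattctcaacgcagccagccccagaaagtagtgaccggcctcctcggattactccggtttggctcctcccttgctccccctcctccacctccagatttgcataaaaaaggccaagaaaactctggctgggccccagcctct
Frzb: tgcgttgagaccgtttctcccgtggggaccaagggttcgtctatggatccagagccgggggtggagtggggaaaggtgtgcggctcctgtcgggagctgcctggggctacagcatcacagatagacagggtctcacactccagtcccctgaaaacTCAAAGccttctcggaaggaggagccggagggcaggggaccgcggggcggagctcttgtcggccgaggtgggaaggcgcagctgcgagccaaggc
Fzd4: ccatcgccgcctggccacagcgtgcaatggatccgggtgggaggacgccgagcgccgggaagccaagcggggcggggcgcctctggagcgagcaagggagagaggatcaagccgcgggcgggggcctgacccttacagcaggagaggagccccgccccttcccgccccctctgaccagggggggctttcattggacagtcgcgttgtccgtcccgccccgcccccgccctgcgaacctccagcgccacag
Axin2: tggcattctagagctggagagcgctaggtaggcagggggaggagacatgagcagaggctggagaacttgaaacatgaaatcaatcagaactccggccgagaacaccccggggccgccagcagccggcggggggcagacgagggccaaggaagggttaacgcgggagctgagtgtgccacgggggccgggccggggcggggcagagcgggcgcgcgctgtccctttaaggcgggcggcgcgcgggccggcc
*Frzb* held 1 match to the TCF and LEF core and *Sfrp2* held 1 to the SMAD core, both on the opposite strand and so printed as their reverse complement. The TCF and LEF core was found in 4 of the 30 members (13.3%), beside 13.8% of all windows, and the SMAD core in 2 of 30 (6.67%), beside 17.1%. The windows of *Rspo1*, *Fzd4* and *Axin2* held neither string of letters.

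Among the antagonists that bind Wnt, *Sfrp2*, *Frzb* and *Sfrp1* made up most of the level, and their sum with *Sfrp4*, *Sfrp5* and *Wif1* was 327, 65.6 and 327 FPKM in WT libraries 1 to 3 and 47.4, 26.9 and 28.3 FPKM in LTBP4-CKO libraries 1 to 3. The WT libraries were thus all higher, but WT library 2 stood nearer to the LTBP4-CKO libraries than to the other WT libraries. *Sfrp2*, made by fibroblasts and known from injured heart, was at 148, 16.9 and 153 FPKM in WT and 6.32, 7.63 and 7.29 FPKM in LTBP4-CKO libraries. Its mean over samples was 83.6 ± 94.4 FPKM (SD, n = 2) in WT and 6.89 ± 0.801 FPKM (SD, n = 2) in LTBP4-CKO. The estimate was −2.72 on the log2 scale (SE 0.92), with a 95% interval of −4.92 to −0.52, and came to −1.18 without WT libraries 1 and 3. Without WT library 2 it was −4.27, in a fit that left a lone WT sample, the average of libraries 1 and 3.

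*Frzb*, a soluble Frizzled-like protein first known from cartilage, was at 116, 28.9 and 117 FPKM in WT and 28.9, 5.75 and 7.42 FPKM in LTBP4-CKO libraries. WT library 2 and LTBP4-CKO library 1 were level to the digits shown, so the groups just failed to overlap. Its log2 fold change was −1.98 (SE 0.84), and it was −0.99 both without WT libraries 1 and 3 and without LTBP4-CKO libraries 2 and 3. *Sfrp1* was at 48.7, 15.98 and 46.3 FPKM in WT and 10.6, 12.6 and 12.6 FPKM in LTBP4-CKO libraries. Its log2 fold change was −1.19 (SE 0.54), or −0.43 without WT libraries 1 and 3. In WT libraries 1 and 3 relative to WT library 2, *Sfrp2* was 8.92 times as high, *Frzb* 4.02 times and *Sfrp1* 2.97 times. These are the libraries with the high sum of atrial markers, among which *Myl4*, the atrial light chain, stood at 2629 and 2560 FPKM there and at 8.11 to 15.96 FPKM elsewhere. *Nppa*, the gene of atrial natriuretic peptide that load also raises in the ventricle, was at 13882 FPKM in LTBP4-CKO library 1 as well. The part of atrial tissue in the antagonist levels was not tested.

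**Figure D3:**
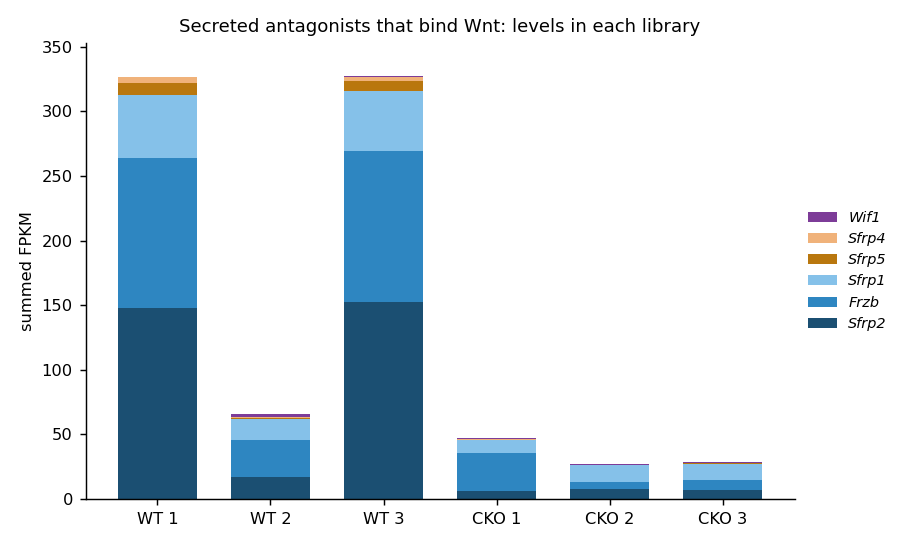
FPKM of the 6 Wnt-binding antagonists stacked per library, WT 1 to 3 and LTBP4-CKO 1 to 3 (CKO), with the bar height giving their sum. WT libraries 1 and 3 reach 327 FPKM each, WT library 2 reaches 65.6 FPKM, and the LTBP4-CKO libraries lie between 26.9 and 47.4 FPKM.

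The make-up of the antagonist pool also differed between libraries. *Sfrp2* supplied 45.3% and 46.7% of the summed FPKM in WT libraries 1 and 3, 25.7% in WT library 2, and 13.3%, 28.4% and 25.8% in LTBP4-CKO libraries 1 to 3. *Frzb* led in WT library 2 (44.2%) and LTBP4-CKO library 1 (60.9%), and *Sfrp1* in LTBP4-CKO libraries 2 and 3 (46.8% and 44.5%). *Sfrp2* ranked above *Sfrp1* in all 3 WT libraries, by little in library 2 (16.9 against 15.98 FPKM), and below it in all 3 LTBP4-CKO libraries. The rank of *Frzb* varied among libraries of 1 genotype. The 3 lesser antagonists were under the filter and were not tested. *Sfrp5* was at 9.40, 0.502 and 7.74 FPKM in WT and 0.135, 0.312 and 0.829 FPKM in LTBP4-CKO libraries, from about 84.6, 3.0 and 72.7 reads in WT and 3.0, 3.0 and 8.9 reads in LTBP4-CKO. WT library 2 lay within the LTBP4-CKO range, so the high values were those of WT libraries 1 and 3. *Sfrp4* was at 4.00, 0.916 and 3.26 FPKM in WT and 0.394, 0.341 and 0 FPKM in LTBP4-CKO libraries, without overlap. *Wif1*, which binds Wnt through a domain of its own, had another pattern. It was highest in WT library 2, at 2.35 FPKM, followed by LTBP4-CKO library 1 at 1.03 FPKM, and was at 0.152 to 0.437 FPKM in the other 4 libraries.

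Dickkopf genes were near the limit of detection. *Dkk2* was at 0.522, 0.398 and 0.9496 FPKM in WT and 0.210, 0.246 and 0.393 FPKM in LTBP4-CKO libraries, from about 5.0 to 19.0 reads. *Dkk1* reached 0.351 FPKM at most and was listed at 0 in 3 libraries, and *Dkk4* was listed at 0 in all 6.

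Fibroblast markers had lower estimates in LTBP4-CKO hearts for 13 of 13 genes, with 0 called (limma) and 4 at an unadjusted p under 0.05, and a median log2 fold change of −1.15. Their summed level was 3209 to 7315 FPKM in WT, lowest in library 2, and 4250, 1413 and 1441 FPKM in LTBP4-CKO libraries 1 to 3. Of the 13 genes, 7 were lower in every LTBP4-CKO library than in any WT library, against 11.5% of all genes. So were 10 of 11 macrophage and monocyte, 5 of 6 adipocyte and 4 of 6 mesothelial and epicardial markers tested. The same held for 3 of 7 atrial markers and for 3 of 7 tested Schwann cell, valve and cartilage genes. Higher in every LTBP4-CKO library were 4 of 10 endothelial, 1 of 8 ventricular and 1 of 6 mesothelial and epicardial markers, against 10.4% of all genes. The 2 most abundant fibroblast markers, *Gsn* (1092 to 2080 FPKM in WT, 480.3 to 1386 in LTBP4-CKO) and *Dcn* (616 to 1902 and 212 to 1528 FPKM), overlapped between genotypes. None of the 13 was listed at 0 in all 6 libraries, and the part of fibroblast content in the antagonist levels was not tested. The list that holds Schwann cell, valve and cartilage genes summed to 184 to 808 FPKM in WT and 37.7 to 41.4 FPKM in LTBP4-CKO libraries, with lower estimates for 7 of 7 genes tested (0 called, 2 at an unadjusted p under 0.05). Most of it came from *Comp* (132 to 673 FPKM in WT, 22.4 to 24.02 in LTBP4-CKO) and *Fmod*, which encode matrix proteins of cartilage and tendon.

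Of the R-spondins, *Rspo1* alone was expressed above the filter, and it separated the genotypes with little spread within either. It was at 6.92, 6.63 and 6.75 FPKM in WT and 1.97, 1.95 and 1.82 FPKM in LTBP4-CKO libraries. All WT libraries were alike in this value, and all LTBP4-CKO libraries were alike. Means over samples were 6.73 ± 0.146 FPKM (SD, n = 2) and 1.93 ± 0.0558 FPKM (SD, n = 2), a difference of −71.4%. The estimate was −1.40 on the log2 scale (SE 0.37, limma, unadjusted p = 0.00818), with a 95% interval of −2.30 to −0.50, and it did not pass over all genes (limma, Benjamini-Hochberg adjusted p = 0.999, and from 0.119 to 1 over the alternatives). Over all 19 alternatives the estimate stayed between −1.75 and −1.36. By exact permutation, two-sided, p was 0.333 over the 4 samples and 0.1 over the 6 libraries, each the smallest that its design allows. Since the genotypes did not overlap, no other value was possible. The test over 6 libraries counts the libraries of each close pair as separate samples. So does the limma fit of 6 libraries with no further term, which gave the adjusted p of 0.119.

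The values of *Rspo1* rest on about 59.8, 37.9 and 60.7 reads in WT and 41.8, 17.8 and 18.8 reads in LTBP4-CKO libraries 1 to 3. At such read numbers counting error alone is wider than the spread seen within either genotype. The small spread therefore cannot be read as precision. The locus of *Rspo1*, a protein-coding gene by GENCODE, spans bases 124986430 to 125009099 of chromosome 4 (mm10, plus strand). Mesothelial and epicardial markers differed in both directions in the same libraries. *Msln*, the mesothelin gene, was at 13.7, 11.2 and 16.0016 FPKM in WT and 4.98, 3.95 and 5.61 FPKM in LTBP4-CKO libraries (log2 fold change −1.24, SE 0.35), and *Wt1*, a transcription factor of the epicardium, was at 2.86, 4.84 and 3.29 FPKM in WT and 5.66, 19.0 and 16.4 FPKM in LTBP4-CKO (1.19, SE 0.55). The 7 listed markers summed to 29.0 to 36.7 FPKM in WT and 15.4 to 32.6 FPKM in LTBP4-CKO libraries, with lower estimates for 5 of 6 tested (0 called, 2 at an unadjusted p under 0.05). The parts of mesothelial cells and of atrial tissue in the level of *Rspo1* were not tested. *Rspo3* was at 0.162 to 0.257 FPKM in WT and 0 to 0.205 FPKM in LTBP4-CKO libraries. *Rspo2* and *Rspo4* were listed at 0 throughout. *Lgr5*, a stem cell receptor for R-spondins, came to 1.0 read in each of LTBP4-CKO libraries 2 and 3.

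**Figure D4:**
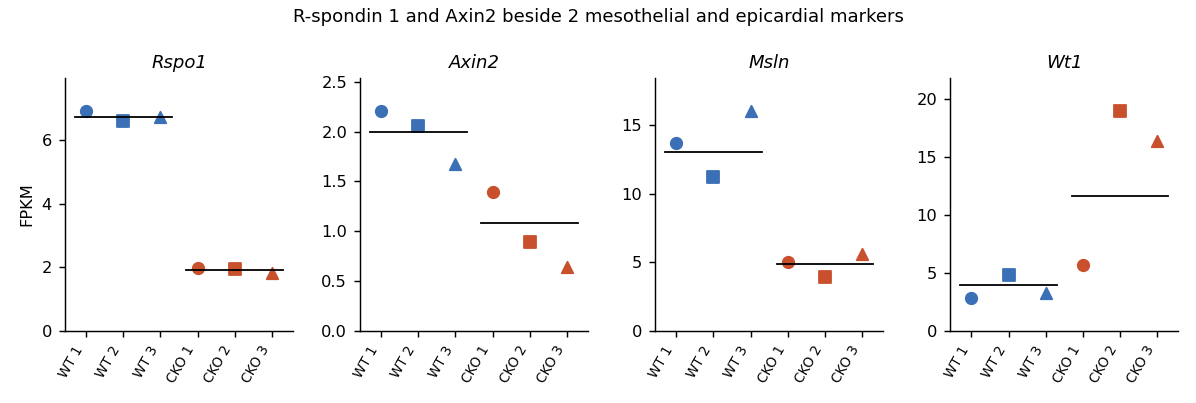
FPKM of *Rspo1*, *Axin2* and the mesothelial and epicardial markers *Msln* and *Wt1* in each library, with horizontal lines at the mean over the 2 samples of each genotype. *Rspo1*, *Axin2* and *Msln* lie lower in all LTBP4-CKO libraries and *Wt1* lies higher, with LTBP4-CKO library 1 at 5.66 FPKM close to WT library 2 at 4.84 FPKM.

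Of the 19 Wnt ligands, 5 passed the filter, all 5 had lower estimates and 0 were called (limma, 0 at an unadjusted p under 0.05). Ligands summed to 27.6, 17.5 and 24.6 FPKM in WT and 16.1, 11.2 and 8.50 FPKM in LTBP4-CKO libraries, far below the antagonists. Summed antagonists were 11.8, 3.76 and 13.3 times the summed ligands in WT libraries and 2.95, 2.39 and 3.32 times in LTBP4-CKO libraries, so that WT library 2 lay close to the LTBP4-CKO range. *Wnt11*, a ligand of heart development that acts mostly without beta-catenin, led in all 3 WT libraries. It was at 10.0, 4.57 and 9.05 FPKM in WT and 4.90, 2.47 and 1.26 FPKM in LTBP4-CKO libraries, where LTBP4-CKO library 1 overlapped with WT library 2. Its log2 fold change was −0.90 (SE 0.53), or −0.44 without WT libraries 1 and 3 and −0.38 without LTBP4-CKO libraries 2 and 3.

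*Wnt9a* was at 8.07, 3.05 and 6.71 FPKM in WT and 5.90, 1.11 and 1.23 FPKM in LTBP4-CKO libraries. It led the ligands in LTBP4-CKO library 1, and its estimate of −0.59 (SE 0.66) was −0.064 without WT libraries 1 and 3 and 0.24 without LTBP4-CKO libraries 2 and 3. *Wnt9b*, known from valve cushion formation and kidney development, ran against *Wnt11* and *Wnt9a* within WT, at 0.801, 3.86 and 1.33 FPKM, and was at 0.559, 0.956 and 1.13 FPKM in LTBP4-CKO libraries. The estimate of −0.83 (SE 0.53) thus rests on WT library 2 and was −0.21 without it. *Wnt5b* was at 2.34, 3.55 and 1.22 FPKM in WT and 1.80, 3.76 and 2.36 FPKM in LTBP4-CKO libraries and led the ligands in LTBP4-CKO libraries 2 and 3. Its difference was −0.076 (SE 0.46), and it changed sign under 7 of the 18 alternatives that gave a value. *Wnt5a*, the main ligand of the beta-catenin-independent branch, was at 1.71, 0.316 and 2.48 FPKM in WT and 1.58, 0 and 0.390 FPKM in LTBP4-CKO libraries. WT libraries 1 and 3 and LTBP4-CKO library 1 were its high libraries, and the estimate was −0.20 (SE 0.61).

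The other 14 ligands were under the filter. *Wnt2* was at 0.655 to 0.976 FPKM in WT and 1.19 and 1.14 FPKM in LTBP4-CKO libraries 2 and 3, but at 0.0790 FPKM in LTBP4-CKO library 1. *Wnt10b* was at 1.38, 0.139 and 1.06 FPKM in WT and 0.223 to 0.605 FPKM in LTBP4-CKO libraries, with only 1.0 read behind the value of WT library 2. *Wnt6* was at 1.10, 0.4552 and 1.34 FPKM in WT and 0.203, 0.753 and 0.0835 FPKM in LTBP4-CKO libraries. *Wnt4* was the only untested ligand with no overlap, at 0.307 to 0.454 FPKM in WT and 0.0953 to 0.243 FPKM in LTBP4-CKO libraries. *Wnt1*, *Wnt2b*, *Wnt3*, *Wnt10a* and *Wnt16* stayed under 1 FPKM in every library and were listed at 0 in at least 1. *Wnt3a*, *Wnt7a*, *Wnt7b*, *Wnt8a* and *Wnt8b* were listed at 0 in all 6 libraries.

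Frizzled receptors differed more in their make-up than in their sum, which was 52.9, 32.8 and 54.7 FPKM in WT and 47.6, 48.1 and 47.8 FPKM in LTBP4-CKO libraries, and of 6 genes tested 3 had lower and 3 higher estimates, with 0 called (limma, 0 at an unadjusted p under 0.05). *Fzd4*, the receptor of blood vessels that also binds norrin, was at 6.04, 6.48 and 6.59 FPKM in WT and 4.96, 22.8 and 23.2 FPKM in LTBP4-CKO libraries. It was high in LTBP4-CKO libraries 2 and 3, which count as 1 sample, and LTBP4-CKO library 1 was the lowest of all 6. The estimate was 0.69 on the log2 scale (SE 0.65, with a 95% interval of −0.86 to 2.25), with 1.70 without LTBP4-CKO library 1 and −0.31 without LTBP4-CKO libraries 2 and 3. *Fzd4* supplied 11.4% to 19.7% of the Frizzled total in WT, 10.4% in LTBP4-CKO library 1 and 47.4% and 48.6% in LTBP4-CKO libraries 2 and 3. Endothelial markers summed to 12057 to 15751 FPKM in WT and to 8129, 18515 and 18540 FPKM in LTBP4-CKO libraries, with higher estimates for 6 of 10 (0 called, 1 at an unadjusted p under 0.05). Most of that sum was *Fabp4*, and the part of endothelial content in the level of *Fzd4* was not tested.

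*Fzd6*, a receptor linked to planar cell polarity, was at 14.7, 13.7 and 15.2 FPKM in WT and 23.3, 13.0 and 12.7 FPKM in LTBP4-CKO libraries, high in LTBP4-CKO library 1 alone. It led the Frizzled genes in all WT libraries and in LTBP4-CKO library 1, and its estimate of 0.26 (SE 0.40) was −0.14 without that library. *Fzd1*, *Fzd2* and *Fzd7*, close relatives that bind overlapping sets of Wnt ligands, shared a pattern. *Fzd7* was at 7.93, 2.95 and 7.97 FPKM in WT and 4.59, 1.71 and 1.92 FPKM in LTBP4-CKO libraries. *Fzd1* ranged from 3.32 to 9.89 FPKM in WT and from 2.89 to 4.83 FPKM in LTBP4-CKO libraries, and *Fzd2* from 2.36 to 7.57 and from 1.56 to 3.76 FPKM. All 3 were 2.696 to 2.96 times as high in WT libraries 1 and 3 as in WT library 2, and overlapped between genotypes. Their estimates were −0.58 (SE 0.57), −0.49 (SE 0.53) and −0.43 (SE 0.54), and without WT libraries 1 and 3 they were 0.0070, 0.15 and 0.20.

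*Fzd8* was at 6.42, 2.84 and 5.08 FPKM in WT and 4.58, 3.96 and 4.54 FPKM in LTBP4-CKO libraries, with an estimate of 0.088 (SE 0.43) that changed sign under 5 of 18 alternatives. Untested *Fzd5* (0.334 to 1.42 FPKM over all libraries) and *Fzd9* (0.163 to 0.938 FPKM) overlapped between genotypes. *Fzd3* did not overlap, at 0.263 to 0.387 FPKM in WT and 0.109 to 0.156 FPKM in LTBP4-CKO libraries, and *Fzd10* was listed at 0 throughout.

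**Figure D5:**
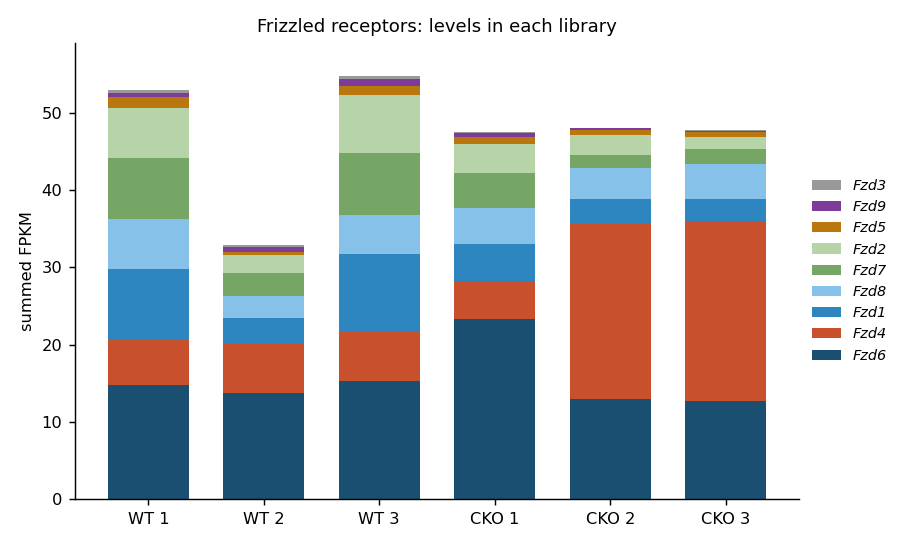
FPKM of the 9 Frizzled receptors with any signal, stacked per library, WT 1 to 3 and LTBP4-CKO 1 to 3 (CKO). *Fzd4* takes 22.8 and 23.2 FPKM of about 48 FPKM in LTBP4-CKO libraries 2 and 3, and *Fzd6* takes 23.3 FPKM in LTBP4-CKO library 1.

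Neither co-receptor was called, and both overlapped between genotypes. *Lrp5* was at 14.5, 18.7 and 15.6 FPKM in WT and 14.1, 18.1 and 15.7 FPKM in LTBP4-CKO libraries, an estimate of −0.11 (SE 0.35, 95% interval −0.95 to 0.73). *Lrp6* was at 8.83, 3.58 and 8.59 FPKM in WT and 7.00, 4.09 and 3.89 FPKM in LTBP4-CKO libraries, an estimate of −0.077 (SE 0.50, 95% interval −1.27 to 1.12). For *Lrp6* a difference of 1 on the log2 scale lies inside this interval in either direction, so one of that size is not excluded with 2 samples per genotype.

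*Axin2*, the target gene most used as a readout of beta-catenin signalling, was at 2.20, 2.05 and 1.68 FPKM in WT and 1.39, 0.891 and 0.640 FPKM in LTBP4-CKO libraries. All LTBP4-CKO values lay below all WT values, from about 29.8 to 48.4 reads in WT and 17.0 to 76.8 reads in LTBP4-CKO libraries. WT library 2 lay between WT libraries 1 and 3, which count as 1 sample. The part of the antagonists in the level of *Axin2* was not tested. Means over samples were 2.00 ± 0.0812 FPKM and 1.077 ± 0.441 FPKM (SD, n = 2 each), and the estimate was −0.55 on the log2 scale (SE 0.41, with a 95% interval of −1.54 to 0.45). Over the alternatives it stayed negative, from −0.88 to −0.33. Of 9 tested genes known to be raised by beta-catenin, *Axin2* included, 8 had lower estimates and 0 were called (limma, 0 at an unadjusted p under 0.05), with a median of −0.17. *Nkd2*, an inhibitor of the pathway, was at 7.42, 7.77 and 8.09 FPKM in WT and 3.92, 6.02 and 6.56 FPKM in LTBP4-CKO libraries (−0.55, SE 0.38). *Nkd1* (−0.48, SE 0.57) and *Bmp4* (−0.39, SE 0.40) overlapped. *Ccnd1*, the cyclin D1 gene with many other regulators, went the other way at 298 FPKM in both LTBP4-CKO libraries 2 and 3, against 26.2 FPKM in LTBP4-CKO library 1 and 27.5 to 63.7 FPKM in WT.

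Other genes of the pathway were read from 4 further lists, with 0 called in each (limma). Of 8 tested genes for making and releasing Wnt, 6 had lower estimates (1 at an unadjusted p under 0.05, median −0.50). *Gpc3*, a glypican of the cell surface, was at 6.75, 5.87 and 6.91 FPKM in WT and 2.73, 2.46 and 3.76 FPKM in LTBP4-CKO libraries (−0.91, SE 0.37), while *Sulf2* (−0.77), *Gpc6* (−0.65) and *Porcn*, which adds the lipid to Wnt (−0.51), overlapped. Of 11 tested further receptors and surface regulators, 4 had lower and 7 higher estimates (0 at an unadjusted p under 0.05, median 0.24). *Ptk7*, a receptor of the polarity branch, was at 1.10 to 1.48 FPKM in WT and 2.08 to 2.45 FPKM in LTBP4-CKO libraries (0.55, SE 0.40). *Vangl1* (0.65) was at 13.1 and 15.1 FPKM in LTBP4-CKO libraries 2 and 3 and at 4.23 to 5.75 FPKM in the other 4, and *Kremen1* (0.54) and *Lgr6* (0.50) overlapped.

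Of 4 tested further extracellular inhibitors, all had lower estimates (0 at an unadjusted p under 0.05, median −0.58). The most abundant was *Igfbp4*, a binding protein of insulin-like growth factors that also inhibits Wnt, at 359, 327 and 354 FPKM in WT and 115, 201 and 198 FPKM in LTBP4-CKO libraries (−1.17, SE 0.50). Its WT values did not follow the split between WT libraries 1 and 3 and WT library 2. *Sost*, the sclerostin gene, was at 6.32, 1.52 and 6.92 FPKM in WT and 0.754 to 1.67 FPKM in LTBP4-CKO libraries (−0.97, SE 0.59), and *Tpbg* (−0.18) and *Apcdd1* (−0.16) overlapped. Of 29 tested genes of the signal relay and the beta-catenin destruction complex, 15 had lower and 14 higher estimates (0 at an unadjusted p under 0.05, median −0.012). *Daam1*, a formin of the polarity branch, was at 6.61 to 7.17 FPKM in WT and 9.36 to 15.03 FPKM in LTBP4-CKO libraries (0.75, SE 0.37). *Csnk1d* (0.46) was higher and *Tle2*, a co-repressor (−0.45), lower in every LTBP4-CKO library, and *Tle4* (0.43) overlapped.

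Further marker lists were measured beside the Wnt genes. Of the macrophage and monocyte list, estimates were lower for 11 of 11 genes (0 called, 2 at an unadjusted p under 0.05, summed level 763 to 1598 FPKM in WT and 471 to 622 FPKM in LTBP4-CKO). Adipocyte markers had lower estimates for 5 of 6 (0 called, 5 at an unadjusted p under 0.05, summed level 288 to 592 FPKM in WT and 51.7 to 95.9 FPKM in LTBP4-CKO, with 1 of 7 listed at 0 throughout). Smooth muscle and pericyte markers were divided, with lower estimates for 6 of 12 (0 called, 0 at an unadjusted p under 0.05, summed level 638 to 1181 FPKM in WT and 518 to 1260 FPKM in LTBP4-CKO). The part of these cells in the Wnt results was not tested.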

How the data were processed

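Per the labels' protocols, heart RNA was isolated with Trizol and TruSeq libraries were prepared. The authors deposited FPKM per gene and library, and the submitters' processing notes name Cufflinks and mm10, without a version. No aligner, annotation or filter is named in the sources used here. No source says that strand was kept, so reads of genes that overlap in opposite directions cannot be told apart. Columns were matched to samples by the short names in the descriptions. A line without values (1 in the table) was dropped. The table's start positions count from 0, and 1 was added to each.

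Members and lists were chosen with earlier results of these data known. Fragments per library were recovered from low values of 2116 genes with a single GENCODE M21 transcript in the same place, where 84.8% to 89.7% of values lay within 0.15 of a whole number of reads. Reads per member are given where a transcript matched the locus, and are approximate. In bins of depth, the median squared difference between libraries was at most 1.92 times that from counting alone for WT libraries 1 and 3 and 1.78 times for LTBP4-CKO libraries 2 and 3. The other 13 pairs reached 66.0 to 255 times. Pairs under 3 times were averaged. Genes that reached 1 FPKM in 3 or more libraries were tested with limma 3.58.1 (R 4.3.3; trend and robust moderation, 2 residual and 4.55 prior degrees of freedom) on log2(FPKM + 1). Such fold changes understate those of low genes. P-values are two-sided, Benjamini-Hochberg adjusted over 12485 genes, with a threshold of 0.05. Exact permutation tests used scipy 1.17.1. The fit was tested on simulated data. Named genes were all members and, from each pathway list, the 4 other tested genes with the smallest p. From each marker list the 2 most abundant genes could be named. Libraries with the same replicate number in both genotypes were not treated as pairs in the reported fit.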

Additional observations from a re-analysis of the deposited data

How the results depend on the processing

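Refitted under 19 alternatives, 308 member estimates kept their direction and their side of the threshold, 24 changed direction and 1 became called. The latter was *Sfrp2* without WT library 2, a fit that left a lone WT sample. In fits without a whole sample, the lone sample left in its genotype is assumed to vary like the other group. The count of all genes called (1) was 2 with 6 libraries and no further term, 0 without a filter, 1 to 12 when leaving out single libraries and 5 without LTBP4-CKO libraries 2 and 3. The median of the members ran from −0.93 to −0.48 when single libraries were left out and was −0.23 without a filter.

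Direction changed for these estimates, and the cause was not tested. *Fzd8* was −0.059 in the 3 fits of 6 libraries (with a term for the earlier or later sample records, without a term and with the replicate block) and −0.021 in the earlier records alone, and *Wnt5b* was 0.14 in the same 3 fits. With single libraries left out, *Fzd8* ran from −0.32 to 0.16, *Wnt5b* from −0.21 to 0.28, *Lrp5* from −0.16 to 0.037 and *Fzd6* from −0.14 to 0.27. Without WT libraries 1 and 3, *Fzd1* was 0.15, *Fzd2* 0.20, *Fzd7* 0.0070, *Lrp6* 0.47 and *Wnt5a* 0.42. Without LTBP4-CKO libraries 2 and 3, *Fzd4* was −0.31, *Lrp6* 0.26, *Wnt5a* 0.36 and *Wnt9a* 0.24.

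The correlations of same-numbered deviations across genes were 0.116, 0.125 and −0.0977. Libraries with unlike numbers gave values of like size, such as 0.113 for WT library 3 with LTBP4-CKO library 1. Since each genotype holds a close pair, these correlations cannot decide whether the replicate numbers of the descriptions pair the libraries. With the replicate block, 1 gene and 0 members were called and the member median was −0.68, the same median as with 6 libraries and the term for sample records, where 1 gene was called. Scaling to a common median, quantile normalization and TMM factors gave member medians of −0.55, −0.48 and −0.52. Members under the filter were not tested in the reported fit, and several of them rest on few reads, such as *Wnt6* with about 1 to 14.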
